A study of Homo sapiens with 6 samples.

Results

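The 41 genes described here build or mark epithelial cell contacts. They comprise 3 adherens junction genes, 5 genes of epithelial adhesion and its regulators, 11 tight junction genes, 8 desmosomal genes, 5 keratins, 5 small proline-rich protein genes and 4 mesenchymal genes or factors of the epithelial-mesenchymal transition (EMT). They were chosen by name, with earlier results of these data known. All 41 were found by NCBI Gene ID among the 28395 gene IDs of each count file. RNA came from HCT116, a human colorectal carcinoma cell line, after 24 h in medium with 50 nM TR-107 (3 libraries) or with 0.1% DMSO as vehicle (3 libraries). TR-107 is a small molecule that activates ClpP, a protease of the mitochondrial matrix. Both groups were grown in the same serum-containing medium and are the same cell line, so no second epithelial line stands beside it. Libraries were made from polyadenylated RNA. The libraries of a group are called biological replicates with no word on separate cultures, so p-values here reflect library-to-library spread, which may be technical.

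Epithelial cells are held together by 3 kinds of junction. Adherens junctions join cells through E-cadherin, which is tied to actin by catenins. Tight junctions seal the space between cells with claudins and occludin, while desmosomes anchor keratin filaments at the membrane through cadherins, plakophilins and plakins. In EMT, transcription factors of the ZEB and SNAI families, which bind E-box sequences, repress many of these genes, and vimentin replaces keratins as the main intermediate filament.

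Total counts were 17264039 to 23708135 per library. As a check of the label, 6 of 8 epithelial markers were well expressed, with a summed level of 5157 to 5208 CPM (gene counts scaled to library size) in DMSO and 5656 to 5791 CPM in TR-107. The other 2, the gut markers VIL1 and LGALS4, were at most 0.207 CPM in any library. Most of the epithelial sum came from KRT8, KRT18 and KRT19. CDX2, the lowest of the 6, went against the sum, from 24.5 to 17.7 CPM (log2 fold change -0.46, edgeR adjusted p = 0.000518). Fibroblast markers summed to 13.3 to 16.5 CPM in DMSO and 16.2 to 18.3 CPM in TR-107, nearly all of it from COL1A1. Without that gene the sums were at most 0.375 CPM, and COL3A1, DCN and LUM had no count. Endothelial markers summed to at most 0.589 CPM and immune markers to at most 0.466 CPM, and PTPRC, CD3E and CDH5 had no count in any library.

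After TR-107, RNA of CDH1 (E-cadherin), CTNNA1 (alpha-catenin), PPL (periplakin) and the keratin gene KRT80 was higher than in DMSO. So was RNA of most of the tight junction genes among the 41 that could be tested. Of the 41 genes, 34 had enough counts to test. By edgeR's quasi-likelihood test at an adjusted p under 0.05, 20 rose, 4 fell and 10 did not pass. Over all 13767 genes tested, 29.2% rose and 28.6% fell, so 57.8% changed in all. At least 2-fold, 7 members rose and 0 fell, beside 6.55% and 3.71% of all tested genes. The median log2 fold change was 0.40 over the 34 genes and 0.01 over all genes tested. In 24 of the 34 the 3 TR-107 libraries lay wholly on 1 side of the 3 DMSO libraries, which was the case for 62.4% of all tested genes. In 20 of these members TR-107 was the higher group and in 4 the lower, against 31.5% and 30.9% of all tested genes. Because the list was chosen with earlier results of these data known, these shares describe it and test nothing.

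**Figure D1:**
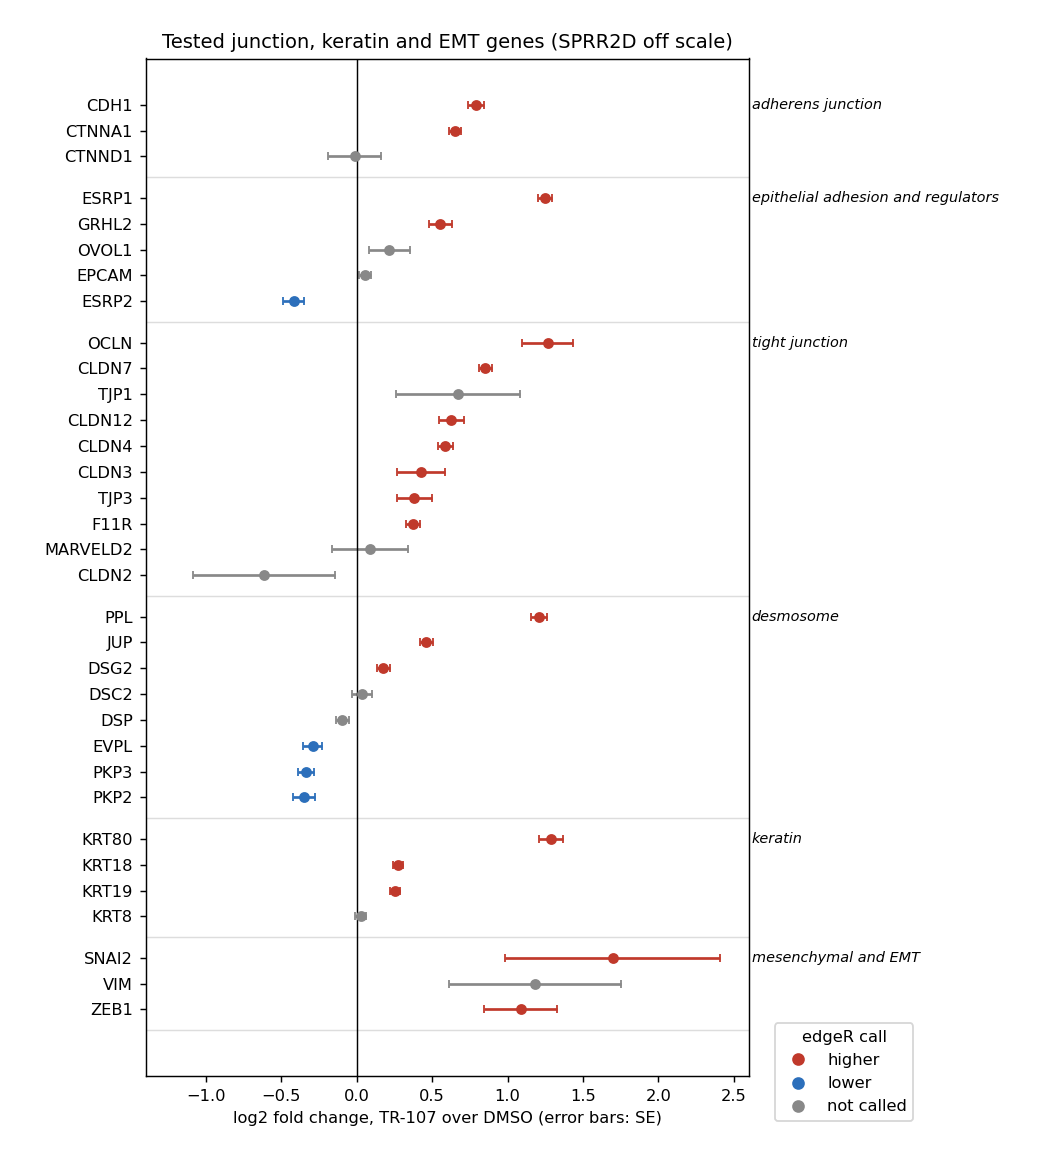
Log2 fold change of TR-107 over DMSO (horizontal axis, points with SE bars) for 33 of the 34 tested genes, grouped by class and coloured by edgeR call; SPRR2D, at 5.19, lies off the scale. Adherens and tight junction genes lie mostly to the right of 0, and desmosomal genes lie on both sides.

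In the tight junction class 7 of 10 tested genes rose and 0 fell (median log2 fold change 0.51). Of the 3 adherens junction genes 2 rose and 0 fell (median 0.65). Of the 8 desmosomal genes 3 rose and 3 fell (median -0.03). No test of these medians against each other was made, so they stand as a description. Over all tested genes 29.2% rose and 28.6% fell. The contrast holds for the listed genes and not for each junction type at large. Of 19 further tight junction genes tested, 7 rose and 8 fell (median 0.14). Of 11 further adherens junction genes tested, 5 rose and 4 fell (median 0.16).

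**Figure D2:**
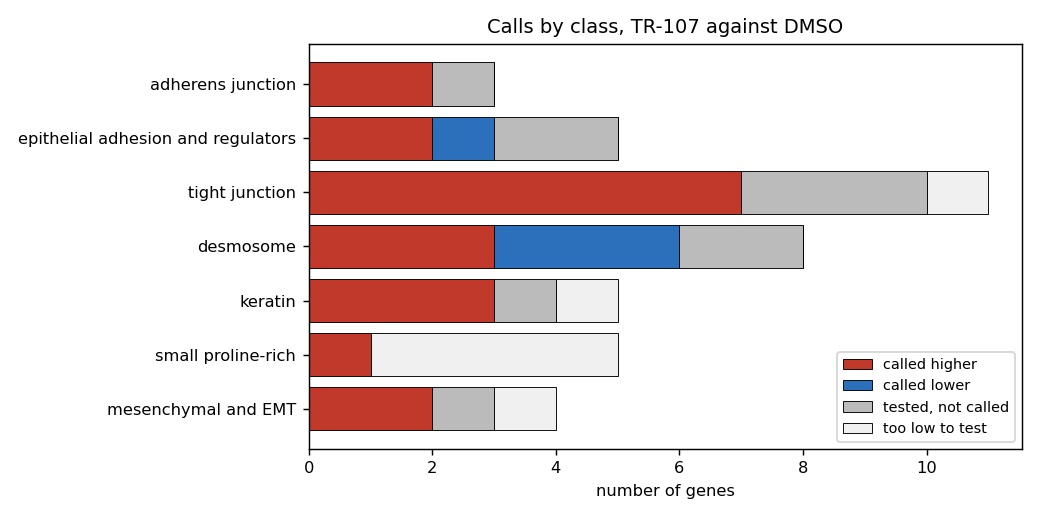
Number of genes per class (horizontal axis) called higher, called lower, tested but not called, or too low to test, in TR-107 against DMSO. The only classes with genes called lower are the desmosomal genes, with 3, and epithelial adhesion and regulators, with 1.

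The promoter stretches of 4 genes that rose and of SPRR1B, a neighbour of the gene with the highest fold change, are shown first, because EMT factors act through E-boxes in such sequences. Each is the 250 bases before the RefSeq transcription start on GRCh38.p14, 5′ to 3′ on the gene's strand. Capitals mark matches on either strand to CACCTG (an E-box bound by ZEB and SNAI factors), TGANTCA (the AP-1 site) or TGATGNAA (the element bound by ATF4 with C/EBP partners). The CLDN4 stretch is chr7:73830746-73830995 (plus strand), that of CLDN7 chr17:7263214-7263463 (minus), that of OCLN chr5:69492297-69492546 (plus), that of ZEB1 chr10:31318167-31318416 (plus) and that of SPRR1B chr1:153030953-153031202 (plus).
CLDN4: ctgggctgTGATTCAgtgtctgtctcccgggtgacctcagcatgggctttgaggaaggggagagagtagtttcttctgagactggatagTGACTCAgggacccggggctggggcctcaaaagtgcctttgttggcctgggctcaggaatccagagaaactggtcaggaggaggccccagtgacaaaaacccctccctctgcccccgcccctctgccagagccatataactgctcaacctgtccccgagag
CLDN7: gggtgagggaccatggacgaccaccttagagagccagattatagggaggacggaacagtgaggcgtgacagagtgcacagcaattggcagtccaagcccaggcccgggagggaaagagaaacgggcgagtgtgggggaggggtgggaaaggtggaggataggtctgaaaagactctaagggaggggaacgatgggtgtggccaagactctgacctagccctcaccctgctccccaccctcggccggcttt
OCLN: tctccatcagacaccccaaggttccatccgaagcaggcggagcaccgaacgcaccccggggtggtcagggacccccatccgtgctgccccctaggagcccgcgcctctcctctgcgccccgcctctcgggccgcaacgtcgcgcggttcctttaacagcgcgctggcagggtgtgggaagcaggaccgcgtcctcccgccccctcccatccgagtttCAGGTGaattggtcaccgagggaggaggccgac
ZEB1: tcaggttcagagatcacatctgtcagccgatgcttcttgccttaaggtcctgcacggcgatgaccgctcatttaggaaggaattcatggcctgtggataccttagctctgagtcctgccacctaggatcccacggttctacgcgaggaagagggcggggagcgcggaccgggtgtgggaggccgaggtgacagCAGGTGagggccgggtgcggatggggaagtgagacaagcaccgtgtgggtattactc
SPRR1B: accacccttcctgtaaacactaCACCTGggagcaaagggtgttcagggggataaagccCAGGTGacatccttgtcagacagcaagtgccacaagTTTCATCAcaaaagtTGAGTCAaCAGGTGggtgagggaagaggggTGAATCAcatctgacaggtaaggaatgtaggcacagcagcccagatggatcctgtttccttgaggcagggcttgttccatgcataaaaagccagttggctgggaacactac

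CLDN4 held 2 AP-1 matches, starting at -242 and -161 from the transcription start. OCLN and ZEB1 each held 1 CACCTG match, at -33 and -57, and CLDN7 held none of the 3 motifs. SPRR1B held all 3, with AP-1 matches at -141 and -111. A window of 300 bases (250 before and 50 after the start) was at hand for 24 of the 41 genes. SPRR2D, CDH1, PPL, KRT80, KRT18 and KRT19 were among those without a window, so their promoters were not searched. CACCTG was found in 11 of these 24 (45.8%) and in 20.6% of all 35116 promoter windows. TGANTCA was found in 6 of 24 (25%), against 7.71% of all windows, and 4 of the 6 were SPRR1A, SPRR1B, SPRR2A and SPRR3, every small proline-rich gene with a window. TGATGNAA was found in 1 of 24 (4.17%) and in 3.62% of all. These matches describe letters only and show no binding. Genes and motifs were chosen with earlier results of these data known, and the shares were not tested.

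CDH1 encodes E-cadherin, the adhesion receptor of adherens junctions (GRCh38 chromosome 16, 68737292 to 68835537). Its level was 89.0, 85.5 and 90.4 CPM in DMSO replicates 1, 2 and 3 and 148, 149 and 162 CPM in TR-107. The groups did not overlap, and CDH1 rose 1.73-fold (log2 fold change 0.79 ± 0.05, SE; edgeR adjusted p = 3.87e-17). CTNNA1, alpha-catenin, which links the cadherin complex to actin, had 427, 408 and 425 CPM in DMSO and 665, 643 and 669 CPM in TR-107. All TR-107 libraries were higher, by 1.57-fold (log2 fold change 0.65 ± 0.04, SE; edgeR adjusted p = 1.07e-18). CTNND1, p120-catenin, which keeps cadherins at the membrane, did not pass the test. Its mean was 7.39 ± 0.920 CPM (SD, n = 3) under vehicle against 7.30 ± 0.212 CPM (SD, n = 3) after treatment. Nearly its whole span lies inside that of the readthrough gene TMX2-CTNND1, whose own row held 0 to 3 counts per library, so reads that fit both genes cannot be told apart and the level of CTNND1 is uncertain.

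Other adherens junction genes moved both ways. Of 14 further genes listed, 11 were tested, 5 rose and 4 fell, beside 29.2% and 28.6% of all tested genes. PVR, a nectin-like adhesion molecule, rose from 165 to 276 CPM (log2 fold change 0.74), and VCL, vinculin, and CDH3, P-cadherin, rose by 0.36 and 0.22. NECTIN3, an immunoglobulin-like adhesion molecule of these junctions, fell from 100.5 to 43.6 CPM (log2 fold change -1.20). CTNNB1, beta-catenin, fell from 400.1 to 325 CPM (-0.30), and CTNNAL1 by 0.17 on the log2 scale. At the RNA level, CTNNB1 was thus lower and CDH1 and CTNNA1 were higher. These data hold no protein values, so the make-up of the cadherin complex was not tested.

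Among genes of epithelial identity, EPCAM, an adhesion molecule of simple epithelia, had 380, 368 and 396 CPM in DMSO and 399, 402 and 385 CPM in TR-107. These ranges overlapped (log2 fold change 0.05 ± 0.04, SE; edgeR adjusted p = 0.264). ESRP1 and ESRP2 encode related splicing factors that maintain epithelial isoforms, and they moved in opposite directions. ESRP1 had 144, 148 and 162 CPM in DMSO and 345, 349 and 384 CPM in TR-107, a rise of 2.38-fold (edgeR adjusted p = 5.07e-24). ESRP2 had 68.5, 70.7 and 69.3 CPM in DMSO and 48.9, 57.7 and 49.6 CPM in TR-107, which was 1.34-fold lower (edgeR adjusted p = 1.41e-06). Neither gene's groups overlapped. ESRP2 shares 3.88% of its exon bases, in part with NFATC3 on the other strand, a gene that also fell (from 61.3 to 50.8 CPM), and whether reads were counted by strand is not given in the sources used here. The log2 ratio of ESRP1 to ESRP2 within a library, which does not depend on scaling, went from 1.12 ± 0.0909 to 2.79 ± 0.182 (SD, n = 3). An exact two-sided permutation test gave p = 0.1, below which 6 libraries in 2 groups of 3 cannot go.

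GRHL2, a transcription factor that activates epithelial junction genes, rose from 37.0, 34.6 and 34.6 CPM in DMSO to 51.6, 52.9 and 51.5 CPM in TR-107 (log2 fold change 0.56 ± 0.08, SE; edgeR adjusted p = 2.78e-08). OVOL1, a zinc-finger factor that opposes EMT, ranged from 12.8 to 16.2 CPM in DMSO and from 12.6 to 18.9 CPM in TR-107, and did not pass (edgeR adjusted p = 0.180). It passed without TR-107 replicate 1, its lowest library (log2 fold change 0.38, adjusted p = 0.0161). Of its exon bases 31.1% are shared with a transcript on the other strand in GENCODE.

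**Figure D3:**
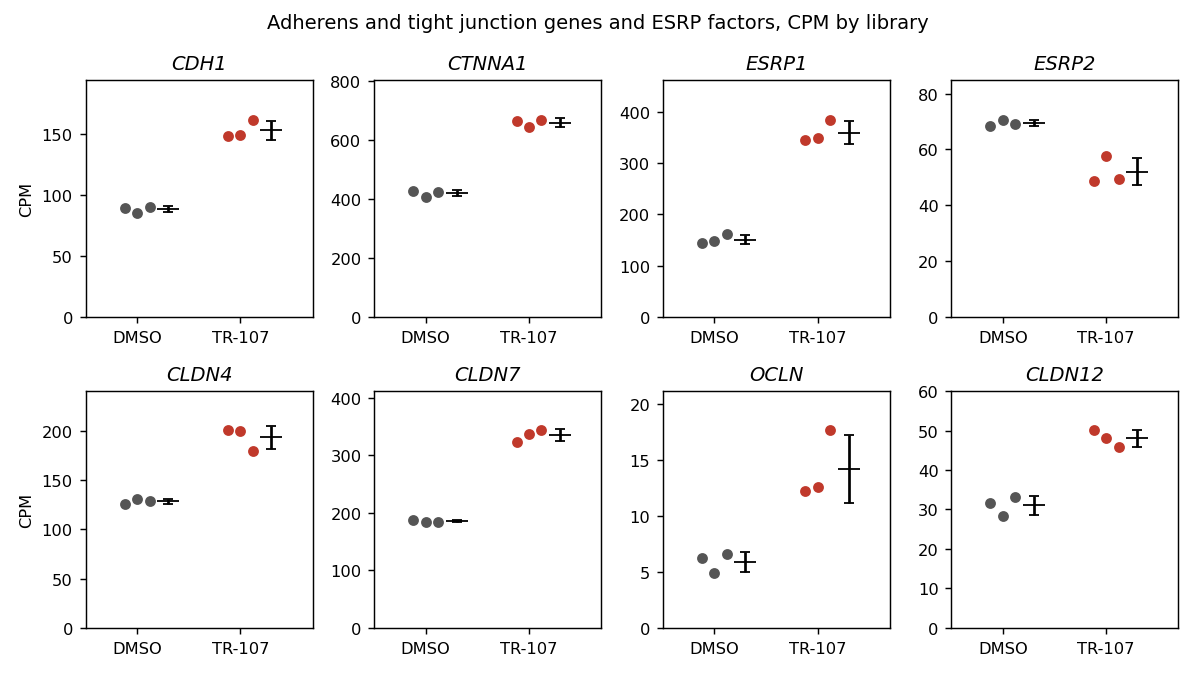
CPM in each library (vertical axes start at 0) for 8 adherens junction, splicing factor and tight junction genes in DMSO (grey) and TR-107 (red); bars give the mean ± SD of 3 libraries. In each of these picked panels the 2 groups are separate, and ESRP2 alone of the 8 is lower in TR-107. Genes of these classes whose groups overlap, such as CTNND1, CLDN3 and TJP1, are not shown.

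Claudins are the strand-forming proteins of tight junctions, and which of them a cell makes sets how tight the seal is. CLDN7 had 187, 184 and 185 CPM in DMSO and 323, 337 and 343 CPM in TR-107, a rise of 1.81-fold (log2 fold change 0.85 ± 0.04, SE; edgeR adjusted p = 3.16e-21). CLDN4, a sealing claudin, had 126, 131 and 129 CPM in DMSO and 201, 200 and 180 CPM in TR-107, a rise of 1.5-fold (edgeR adjusted p = 6.02e-14). The groups of both genes were well apart. CLDN12 rose from 31.0 ± 2.42 to 48.0 ± 2.19 CPM (SD, n = 3; log2 fold change 0.63). CLDN3 was called with groups that overlapped, at 7.86, 10.4 and 8.85 CPM in DMSO and 9.52, 13.0 and 14 CPM in TR-107 (log2 fold change 0.43 ± 0.16, SE; edgeR adjusted p = 0.0195). Its call was lost under DESeq2 (adjusted p = 0.06) and when DMSO replicate 1 or 3 or TR-107 replicate 2 or 3 was left out (edgeR adjusted p 0.0652 to 0.129).

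The pore-forming claudin CLDN2 went the other way in its mean without passing the test. It had 1.5, 1.75 and 1.57 CPM in DMSO and 1.64, 0.931 and 0.606 CPM in TR-107 (log2 fold change -0.62 ± 0.47, SE; edgeR adjusted p = 0.268). CLDN1 could not be tested: it had 3 counts in DMSO replicate 1, 1 count in TR-107 replicate 1 and 0 elsewhere. Per kilobase of annotated exon, CLDN7 was the most abundant of the 6 claudins in DMSO (89.8 CPM per kb), followed by CLDN4 (30.6), CLDN12 (8.70), CLDN3 (7.11) and CLDN2 (0.471). CLDN7 was also the highest in TR-107, at 162 CPM per kb. The GENCODE exon length used for CLDN4, 4.196 kb, is longer than its whole RefSeq span (chromosome 7, 73830996 to 73832690). Its level per kb may thus be too low, and the size of its gap to CLDN7 is uncertain. The CLDN7 span overlaps ELP5 on the other strand, which did not pass the test (50.8 and 56.2 CPM; edgeR adjusted p = 0.0816).

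OCLN encodes occludin, a transmembrane protein of the tight junction. It had 6.26, 4.89 and 6.57 CPM in DMSO and 12.3, 12.6 and 17.7 CPM in TR-107, a rise of 2.41-fold (log2 fold change 1.27 ± 0.17, SE; edgeR adjusted p = 1.67e-08). All TR-107 libraries were above all DMSO libraries, and this was the one tight junction member past 2-fold. MARVELD2, tricellulin, a relative of occludin found where 3 cells meet, went from 3.87 ± 0.707 to 4.11 ± 0.566 CPM (SD, n = 3) without passing (edgeR adjusted p = 0.785). F11R, the junctional adhesion molecule JAM-A, rose from 159 ± 4.54 to 206 ± 12.7 CPM (SD, n = 3; edgeR adjusted p = 6.11e-09). In GENCODE 38.3% of its exon bases also belong to another annotated gene on the same strand, AL591806.3, so its level is less certain.

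Of the genes for 2 scaffold proteins beneath the membrane, 1 rose. TJP3, ZO-3, rose from 15.7, 16.0 and 14.6 CPM to 18.4, 20.6 and 21.3 CPM (log2 fold change 0.38 ± 0.11, SE; edgeR adjusted p = 0.00406). Its span overlaps that of APBA3, which also rose, from 18.6 to 22.5 CPM (edgeR adjusted p = 0.0319). No exon bases of TJP3 are shared with another gene in GENCODE. TJP1, ZO-1, varied widely within each group, at 9.63, 18.8 and 11.4 CPM in DMSO and 13.1, 27.1 and 23.4 CPM in TR-107. Its groups overlapped and it did not pass (log2 fold change 0.67 ± 0.41, SE; edgeR adjusted p = 0.239), although it passed in limma-voom (adjusted p = 0.00700), in edgeR blocked on the replicate number (0.68, adjusted p = 1.25e-05) and in edgeR without DMSO replicate 2 (log2 fold change 1.00, adjusted p = 0.0460) or TR-107 replicate 1 (0.92, adjusted p = 0.0476).

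Tight junction and polarity genes outside the 11 did not share one direction. Of 27 listed, 19 were tested, 7 rose and 8 fell (median log2 fold change 0.14), beside 29.2% and 28.6% of all tested genes. PATJ, a polarity scaffold, rose by 0.76, PARD3, another polarity scaffold, by 0.45 and AMOTL2, an angiomotin, by 0.41 on the log2 scale. CGN, cingulin, which connects tight junctions to the cytoskeleton, fell from 32.5 to 16.2 CPM (log2 fold change -1.01), and its relative CGNL1, paracingulin, fell from 4.90 to 1.18 CPM (-2.04). CXADR, an adhesion molecule of tight junctions, fell from 50.4 to 30.8 CPM (-0.71).

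In the desmosome, the 8 genes divided evenly. PPL, periplakin, a plakin that binds intermediate filaments, had 63.8, 64.7 and 61.5 CPM in DMSO and 145, 145 and 148 CPM in TR-107, a rise of 2.31-fold (log2 fold change 1.21 ± 0.05, SE; edgeR adjusted p = 6.51e-23). Its partner in the cornified envelope, EVPL, envoplakin, was lower, at 81.8, 84.8 and 77.5 CPM in DMSO and 67.7, 64.2 and 67.3 CPM in TR-107 (log2 fold change -0.29 ± 0.06, SE; edgeR adjusted p = 6.10e-05). The groups of both plakins were apart, in opposite directions. JUP, plakoglobin, a plaque protein shared by desmosomes and adherens junctions, rose from 270.2, 275 and 272 CPM to 359, 362 and 403 CPM (log2 fold change 0.46 ± 0.04, SE; edgeR adjusted p = 2.09e-12).

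PKP2 and PKP3, plakophilins that connect the desmosomal cadherins to desmoplakin, both fell. PKP2 had 58.7, 59.9 and 57.8 CPM in DMSO and 43.5, 44.7 and 50.0 CPM in TR-107 (log2 fold change -0.35 ± 0.07, SE; edgeR adjusted p = 4.65e-05). PKP3 had 144, 154 and 138 CPM in DMSO and 107, 123 and 115 CPM in TR-107 (-0.34 ± 0.05, SE; edgeR adjusted p = 7.35e-07). Neither gene's groups overlapped. Of the desmosomal cadherins, DSG2, desmoglein 2, rose slightly, from 323 ± 7.95 to 364 ± 20.0 CPM (SD, n = 3; edgeR adjusted p = 0.000380), and DSC2, desmocollin 2, did not pass (58.3 ± 3.29 and 59.7 ± 4.07 CPM, SD, n = 3; edgeR adjusted p = 0.685).

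DSP, desmoplakin, the plakin that ties the plaque to keratins, had 302, 291 and 272 CPM in DMSO and 273, 274 and 264 CPM in TR-107. The ranges overlapped and the test was just missed (log2 fold change -0.09 ± 0.04, SE; edgeR adjusted p = 0.0574). It was called lower with relative log expression factors (adjusted p = 0.0412), with total counts alone (0.00126), with a minimum of 1 CPM (0.0404) and without DMSO replicate 3 (0.00581). The log2 ratio of JUP to DSP within a library went from -0.08 ± 0.0828 to 0.47 ± 0.121 (SD, n = 3; exact two-sided permutation p = 0.1, the smallest possible). Of 8 further desmosomal genes, 3 were tested and 0 were called: DSC3, PKP4 and PERP had edgeR adjusted p of 0.363, 0.124 and 0.576. PKP4 was called lower with total counts alone (adjusted p = 0.00769) and without TR-107 replicate 3 (0.0211).

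**Figure D4:**
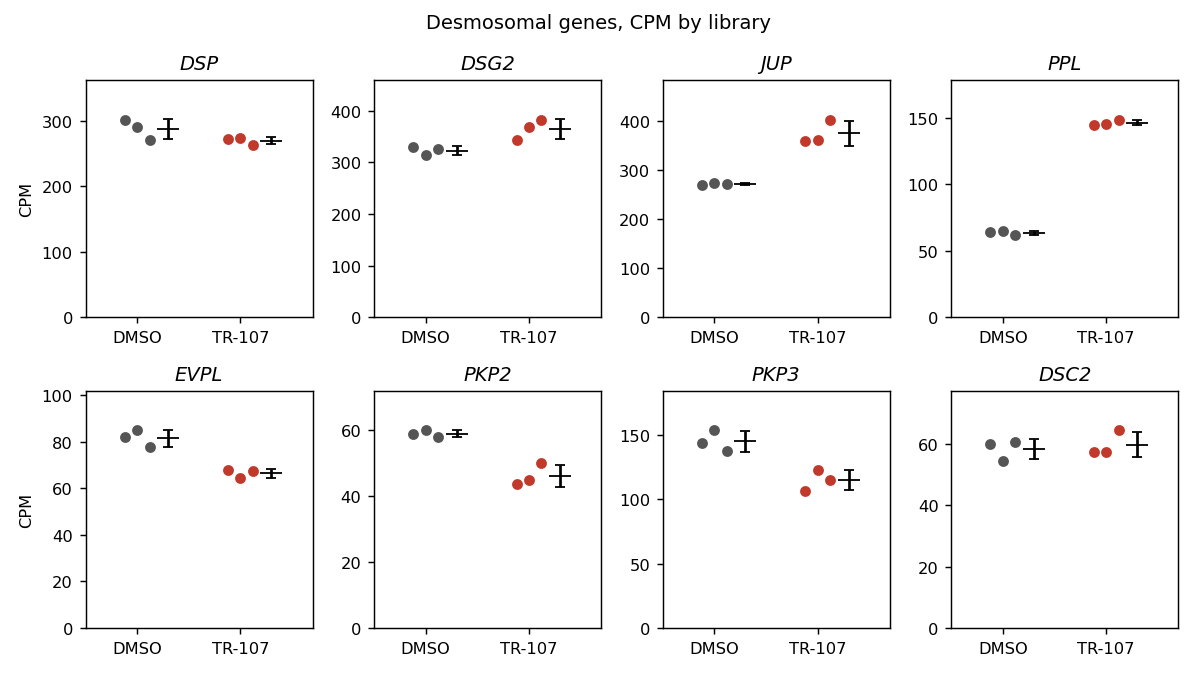
CPM in each library (vertical axes start at 0) for the 8 desmosomal genes in DMSO (grey) and TR-107 (red); bars give the mean ± SD of 3 libraries. PPL, JUP and DSG2 are higher and EVPL, PKP2 and PKP3 lower in all TR-107 libraries, while DSP and DSC2 overlap.

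Keratins pair as a type I and a type II chain to form filaments, and KRT8 with KRT18 is the first pair made in simple epithelia. KRT8 had 2643, 2685 and 2611 CPM in DMSO and 2656, 2654 and 2771 CPM in TR-107, with overlapping groups (log2 fold change 0.03 ± 0.03, SE; edgeR adjusted p = 0.543). KRT18 had 1151, 1115 and 1137 CPM in DMSO and 1371, 1383 and 1357 CPM in TR-107, a rise of 1.21-fold (edgeR adjusted p = 8.09e-09). The log2 ratio of KRT18 to KRT8 in a library went from -1.22 ± 0.0397 to -0.97 ± 0.0483 (SD, n = 3), and its groups did not overlap (exact two-sided permutation p = 0.1, the smallest possible). The 2 genes overlap at their ends on opposite strands, by 135 exon bases, or 2.95% of the exon bases of KRT8 and 6.72% of those of KRT18.

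KRT19, a small keratin of simple and glandular epithelia, rose from 886, 925 and 901 CPM to 1064, 1071 and 1099 CPM (log2 fold change 0.25 ± 0.04, SE; edgeR adjusted p = 6.72e-08). KRT80, a type II keratin associated with desmosomes, rose more, from 27.1, 29.9 and 25.5 CPM to 71.9, 65.0 and 64.8 CPM, which was 2.44-fold (edgeR adjusted p = 3.18e-18). KRT20, a marker of differentiated gut epithelium, had no count in any library. A count of 0 allows up to 3 counts, or 0.127 to 0.174 CPM depending on the library, and covers counting error only.

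Of 13 other keratins listed, 6 were tested, 4 rose and 0 fell. The shares over all tested genes were 29.2% higher and 28.6% lower. KRT7, the usual partner of KRT19 in ductal epithelia, rose from 84.4 to 257 CPM (log2 fold change 1.61), and KRT15 from 17.2 to 27.7 CPM (0.69). KRT81, a hair keratin, rose from 1.47 to 5.45 CPM (1.89). The fourth that rose was the related hair keratin KRT86, from 0.332 to 2.88 CPM (3.05), on 3, 3 and 17 counts in DMSO. The spans of KRT81 and KRT86 overlap, and KRT81 shares 0 exon bases with another gene in GENCODE. How alike the sequences of the 2 genes are was not checked, and the multi-mapping setting is not given. KRT86 shares 9.09% of its exon bases, in part with AC021066.3 on the same strand, so its level is less certain.

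Small proline-rich proteins are precursors of the cornified envelope of squamous epithelia, and their genes lie side by side on chromosome 1. SPRR2D (153039732 to 153041120) had 9, 4 and 4 counts in DMSO and 161, 197 and 193 counts in TR-107. That was 0.482, 0.175 and 0.165 CPM against 9.41, 10.8 and 8.99 CPM (log2 fold change 5.19 ± 0.32, SE; edgeR adjusted p = 8.97e-18). Pooled over libraries the ratio was 37.5, with an exact 95% interval of 23.2 to 64.9 for counting error alone. Without DMSO replicate 1, the highest of the vehicle libraries, the log2 fold change was 5.78, and the gene was still called.

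The neighbours of SPRR2D stayed at or near 0. SPRR1B (153031203 to 153032900) had 2, 0 and 0 counts in DMSO and 7, 13 and 4 counts in TR-107, too few for the main test. The pooled ratio was 13.9, with an exact 95% counting interval of 3.45 to 121. It was called higher where no filter was applied (edgeR adjusted p = 0.0445) and by DESeq2 (adjusted p = 0.0282). SPRR1A had 3 counts and SPRR2A had 2 counts, each in 1 TR-107 library, and SPRR3 had none. SPRR2B, SPRR2E, SPRR2F and SPRR2G had none either. Members of this family are close copies, but of 1199 stretches of 150 bases (the read length) in SPRR2D transcripts 0 were found in another SPRR transcript, against 59 of 560 (10.5%) for SPRR2A. With all SPRR2 counts summed into 1 row, the log2 fold change was again 5.19.

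Of 20 other cornified envelope genes and regulators listed, 19 were found in the files and 12 of these were too low to test. Of the 7 tested, 3 rose and 0 fell, beside 29.2% and 28.6% of all tested genes. KLF4, a transcription factor of epithelial differentiation, rose from 32.9 to 92.1 CPM (log2 fold change 1.48), KLK6, a secreted serine protease, from 62.6 to 113 CPM (0.85) and ELF3, an epithelial ETS factor, from 40.6 to 56.7 CPM (0.48). LORICRIN had no count, and IVL, involucrin, averaged 0.0567 CPM in DMSO and 0 in TR-107.

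Few reads came from the mesenchymal and EMT genes among the 41 in either group. ZEB1, a repressor of E-cadherin, had 2.68, 2.84 and 2.65 CPM in DMSO and 5.61, 4.82 and 6.90 CPM in TR-107, a rise of 2.12-fold (log2 fold change 1.09 ± 0.24, SE; edgeR adjusted p = 0.000174). Its groups did not overlap. The antisense gene ZEB1-AS1, whose span overlaps it, rose as well, from 13 to 38 counts per library in DMSO to 77 to 103 in TR-107 (edgeR adjusted p = 7.86e-06). No exon bases of ZEB1 are shared with another gene in GENCODE. ZEB1 and its target CDH1 were both higher, and the log2 ratio of ZEB1 to CDH1 in a library went from -5.02 ± 0.0957 to -4.74 ± 0.198 (SD, n = 3; exact two-sided permutation p = 0.2).

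SNAI2, the repressor Slug, rested on 5, 6 and 3 counts in DMSO and 13, 15 and 12 counts in TR-107. It was called higher (log2 fold change 1.7 ± 0.71, SE; edgeR adjusted p = 0.0397), but the call was lost in DESeq2 (adjusted p = 0.0719), without a filter (0.124), with the replicate number as a block (0.0538) and when any single library other than TR-107 replicate 3 was left out (0.0726 to 0.153). VIM, vimentin, the mesenchymal intermediate filament, had 0.696, 0.262 and 0.538 CPM in DMSO and 0.759, 1.15 and 1.44 CPM in TR-107. The groups were apart but the test was missed (log2 fold change 1.18 ± 0.57, SE; edgeR adjusted p = 0.0725). In GENCODE, 52.6% of the exon bases of VIM are shared with genes on the other strand, among them VIM-AS1, which had 0 to 4 counts per library. Without a known strand setting, reads in that stretch cannot be told apart. ZEB2 had no count in any library.

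**Figure D5:**
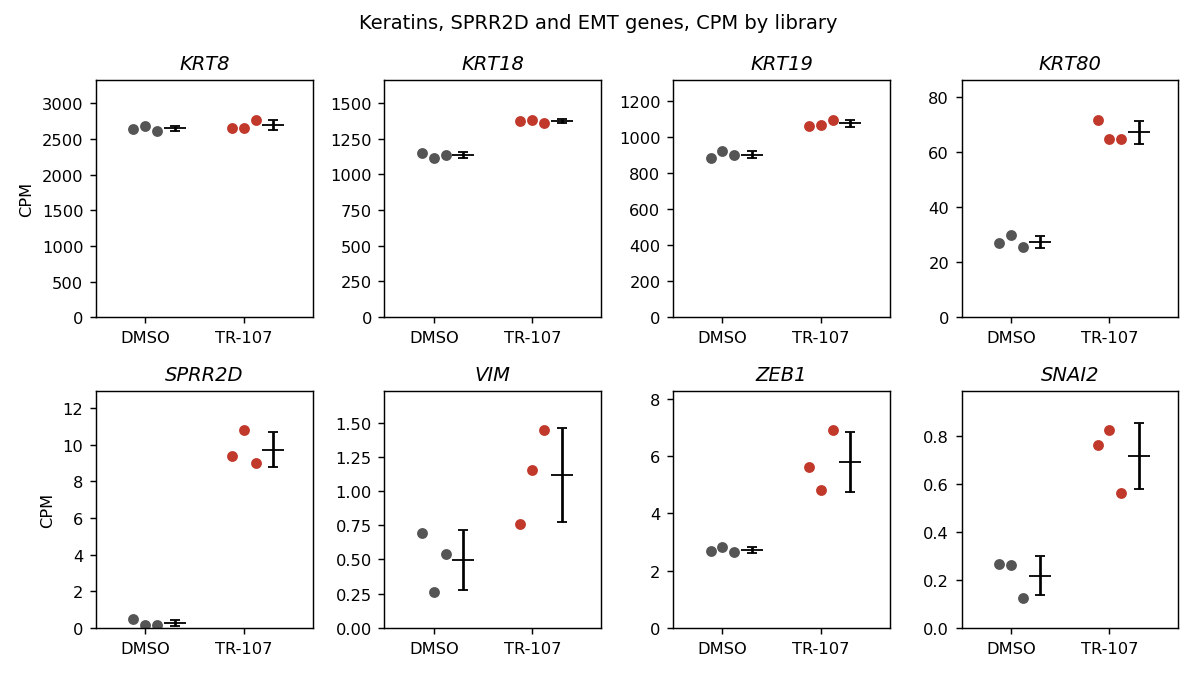
CPM in each library (vertical axes start at 0 and differ in scale) for 4 keratins, SPRR2D, VIM, ZEB1 and SNAI2 in DMSO (grey) and TR-107 (red); bars give the mean ± SD of 3 libraries. KRT8 overlaps between groups, and VIM, ZEB1 and SNAI2 stay below 7 CPM in all libraries.

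Among 21 further mesenchymal and EMT genes, 14 were tested, 2 rose and 5 fell (median log2 fold change -0.25). Of all tested genes, 29.2% rose and 28.6% fell. SNAI1, the repressor Snail, fell from 13.5 to 5.93 CPM (log2 fold change -1.19), opposite in direction to ZEB1. S100A4, a calcium-binding protein linked to motility, fell from 66.2 to 29.3 CPM (-1.18), and TGFB1, an inducer of EMT, from 77.1 to 55.5 CPM (-0.47). AXL, a receptor tyrosine kinase often raised in mesenchymal cells, rose from 112 to 278 CPM (1.31), and SMAD3, which carries TGF-beta signals, from 163 to 233 CPM (0.52). CDH2, N-cadherin, was too low to test, at a mean of 0.0575 CPM in DMSO and 0.0195 CPM in TR-107.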

How the data were processed

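The deposited values are raw counts per NCBI Gene ID; per the submitters' processing notes the authors used FastQC, Trimmomatic, HISAT2, featureCounts and the hg38 build, with no version, strand or multi-mapping setting stated. Symbols came from an NCBI RefSeq table of GRCh38.p14 (27745 of 28395 IDs matched; 650 stayed under their ID), as did coordinates and promoter sequences. Exon lengths, exon overlaps and transcripts came from GENCODE release 29.

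Groups were compared by the quasi-likelihood test of edgeR 4.0.16 (R 4.3.3) with TMM scaling, filterByExpr, a robust dispersion fit and the group alone, adjusted by Benjamini-Hochberg over all 13767 tested genes at 0.05. CPM used TMM-scaled library sizes. On simulated counts for this comparison over 13767 genes, 92% of 2-fold rises, 86% of 2-fold falls and 90% of 1.5-fold rises were recovered, and 0.0673% of unchanged genes were called. The 200 changed genes were drawn from those with a mean above 1 CPM. The recovery rates therefore do not cover lower genes such as VIM and SNAI2. Only these 200 genes were changed, whereas 57.8% of tested genes were called in the data. The rates of recovery and of false calls thus describe the simulated setting and may not carry over to this comparison. Replicates differed by 3.95 to 6.14 chi-square per degree of freedom, so none was a duplicate. Ratios of 2 genes were tested by exact two-sided permutation (SciPy 1.17.1); the 4 pairs were chosen after their values were seen, and their Benjamini-Hochberg adjusted p were 0.133, 0.133, 0.133 and 0.2.

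The 41 genes, the further lists and the motifs were chosen with earlier results of these data known. All 41 are named, with up to 3 called genes per direction of each further list, those with the smallest adjusted p, except 1 item that is not reported here. Genes named beyond this rule (KRT86, uncalled or low genes of the further lists, and genes that overlap a member) were picked after their values were seen. Alternatives were other scalings and filters, DESeq2 1.42.0, limma-voom (limma 3.58.1), a replicate block, summed SPRR copies and leaving out each library.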

Additional observations from a re-analysis of the deposited data

How the results depend on the processing

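Of the 24 members called, 22 kept their call and direction under all 14 alternatives that gave an adjusted p; the exceptions were CLDN3 and SNAI2. Over the 34 tested members no called value changed sign. The EMT class went from 2 called higher to 1 with no filter on low counts, with at least 1 CPM in 3 libraries (SNAI2 is then not tested), with DESeq2 and with the replicate block, and ranged from 1 to 2 when single libraries were left out. The small proline-rich class went from 1 to 2 with no filter and with DESeq2, which test SPRR1B. The sum of SPRR1A and SPRR1B was too low to test. All other counts over classes of members stayed within 1.5 times; in the further lists, desmosome and keratin genes called lower went from 0 to 1 under some alternatives. The alternatives for single genes of the further lists were chosen after seeing the data, and no called value among them changed sign. SPRR2D ranged from a log2 fold change of 4.91 to 5.78 when single libraries were left out. The median log2 fold change of all tested genes was 0.01 with TMM scaling and -0.05 with total counts alone.

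Replicate numbers did not pair the libraries: deviations from group means of same-numbered libraries correlated at -0.0311, -0.0185 and 0.0486. With the replicate block, TJP1 passed (log2 fold change 0.68, edgeR adjusted p = 1.25e-05), SNAI2 did not (1.72, adjusted p = 0.0538), and no other member changed its call. Low counts limit CLDN1, SPRR1A, SPRR1B, SPRR2A, VIM and SNAI2, and zero counts in KRT20, SPRR3 and ZEB2 allow a low level that was not detectable at this depth.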

Other observations

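Gap junction genes form channels between neighbouring cells and stand outside the 3 junction types above. They moved both ways, as did all tested genes, of which 29.2% rose and 28.6% fell. Of 7 gap junction genes listed, 5 were tested, 3 rose and 2 fell. Among them, GJB2, connexin 26, rose from 45.3 to 59.2 mean CPM (log2 fold change 0.39 ± 0.08, SE; edgeR adjusted p = 0.000126). GJB5 rose from 4.0 to 5.78 CPM (0.53 ± 0.22, SE; edgeR adjusted p = 0.0404). The call of GJB5 was lost with total counts alone (edgeR adjusted p = 0.0741), with no filter (0.0593), in DESeq2 (0.0778), in limma-voom (0.0563) and when any single library other than TR-107 replicate 3 was left out (edgeR, 0.0596 to 0.182). GJC1, connexin 45, fell from 132 to 98.2 CPM (-0.43 ± 0.05, SE), and PANX1, a pannexin channel, from 72.2 to 56.8 CPM (-0.34 ± 0.07, SE). GJA1, connexin 43, and GJB1, connexin 32, had no count in any library.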
